A study of Mus musculus with 24 samples.

Results

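Brain RNA of 4 male mice homozygous for a gene-trap allele of Eya3 (Eya3-/-) was compared with a pool of wild-type brain RNA on glass arrays carrying 20794 cDNA clones. Every mouse was measured on 2 arrays with exchanged dyes, so 8 of the 24 arrays of the series are described here; they were chosen by their titles, and the other 16 hold heart and skeletal muscle of the same mice (8 arrays each). All mice were 13 weeks old. The trap carries a promoterless lacZ reporter in an intron of Eya3, and the line was made in Sv129S2 embryonic stem cells and crossed to C57BL/6 for several generations. The pool is a single RNA reference from several wild-type males of the same age, so the spread between wild-type brains was not measured, and anything peculiar to the pool enters the ratio of every mouse. The numbers listed for pooled animals include, as a range, those of 2 mutant mice, called W and X here, and the make-up of the pool is therefore not certain.

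Eya3 belongs to the Eyes absent family, proteins that join a transcriptional co-activator to a tyrosine phosphatase domain. In Drosophila, eyes absent acts with sine oculis, dachshund and eyeless in eye determination, and the mammalian Eya proteins pair with DNA-binding homologues of sine oculis. Ratios from whole brain average neurons, oligodendrocytes (the cells that make myelin), astrocytes (which clear glutamate and supply lipid), microglia, vessels, the choroid plexus that secretes cerebrospinal fluid, and any blood left in the tissue. In such RNA, fewer cells of a type and less RNA per cell cannot be told apart.

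The values are log ratios, taken here as log2. A negative value likely means less RNA in the mutant than in the pool, a direction that is not stated with the values: values beyond 10 in size were all above 0 on arrays with the mutant in Cy5 and all below 0 with the mutant in Cy3, and haemoglobin clones had the same sign in both dye orientations of each mouse. Each value below is the mean of both dye orientations for 1 mouse, and clones with such a mean in fewer than 3 mice were left out. This left 15846 clones, 12083 of them in all 4 mice. Of the tested clones 9792 carried a gene symbol, which gave 7392 genes. Missing spots made up 9.15% to 16.4% of a brain array, medians ran from -0.02 to 0.04, and on each array 90 to 223 values exceeded 10 in size. Neuronal marker clones had a value on 96.1% of brain spots against 80.5% of muscle spots, whereas heart and muscle marker clones had one on 87.5% of brain spots and on 100% of muscle spots. For astrocytes (82.5% in brain, 86.2% in heart) and oligodendrocytes (81.2% and 79.7%) this share did not set brain apart, so the check bears only on neuronal and muscle markers. The single Eya3 clone gave values on 4 brain arrays (-0.55 in mouse X, -0.87 in W, -3.32 in Y and 1.24 in Z) and on both arrays of no mouse, and it therefore offered no check of the genotype.

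No clone passed the test on mouse means in brain. With limma and Benjamini-Hochberg adjustment 0 of 15846 clones had an adjusted p under 0.10 (0%), and the lowest adjusted p was 0.518; averaging the clones of a gene left 0 of 7392 genes (0%) with a lowest adjusted p of 0.499. At an unadjusted p under 0.05 there were 640 clones below 0 (4.04% of those tested) and 840 above 0 (5.3%). At the level of genes these were 358 below 0 (4.84%) and 351 above 0 (4.75%). Of the clones measured in all 4 mice 1892 lay below 0 in every mouse (15.7%) and 1217 above 0 in every mouse (10.1%), and of 6095 such genes 984 lay below (16.1%) and 519 above (8.52%). The methods' test, SAM, called 0 clones on mouse means and 29 on the 8 single arrays, 10 of them above and 19 below 0. A limma fit of the 8 single arrays with the mouse as a random block called 9 clones at an adjusted p under 0.10. The descriptions that follow are therefore of sizes, signs and their spread.

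Among clones with a symbol and the lowest p below 0, several had nearly equal ratios in all mice. Rrbp1, a ribosome-binding protein of the endoplasmic reticulum, gave -0.96 in mouse W, -0.93 in X, -0.98 in Y and -0.70 in Z. Its mean was -0.89 ± 0.13 (SD, n = 4 mice), with -0.43 on the arrays with the mutant in Cy5 and -1.36 on those with the mutant in Cy3. Ccnd2, the cyclin D2 that drives entry into S phase, lay at -0.75 in mouse W, -0.98 in X, -0.75 in Y and -0.64 in Z. The dye orientations gave Ccnd2 the same value, -0.78 and -0.78, and its mean was -0.78 ± 0.14 (SD, n = 4 mice), against 0.07 in heart and 0.17 in muscle. Serpina12, the adipokine vaspin, had a mean of -0.94 ± 0.20 (SD, n = 4 mice) with the mice between -1.17 and -0.69. Armc8, an armadillo-repeat protein of a ubiquitin ligase complex, had -0.76 ± 0.10 (SD, n = 4 mice), and Ddx17, an RNA helicase, -0.66 ± 0.09 (SD, n = 4 mice). Tbcel, a tubulin cofactor E-like protein, had -0.71 ± 0.13 (SD, n = 4 mice) and Ubqln1, which carries ubiquitinated proteins to the proteasome, -0.99 ± 0.41 (SD, n = 4 mice). All of these lay below 0 in each of the 4 mice. The dye orientations lay over 1.5 times apart for Tbcel (-0.43 and -0.996), Ubqln1 (-1.39 and -0.59), Ddx17 (-0.88 and -0.44) and Armc8 (-0.96 and -0.57), as for Rrbp1. The other clones chosen by the lowest p also kept one sign in every mouse, which a choice by p favours.

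**Figure D1:**
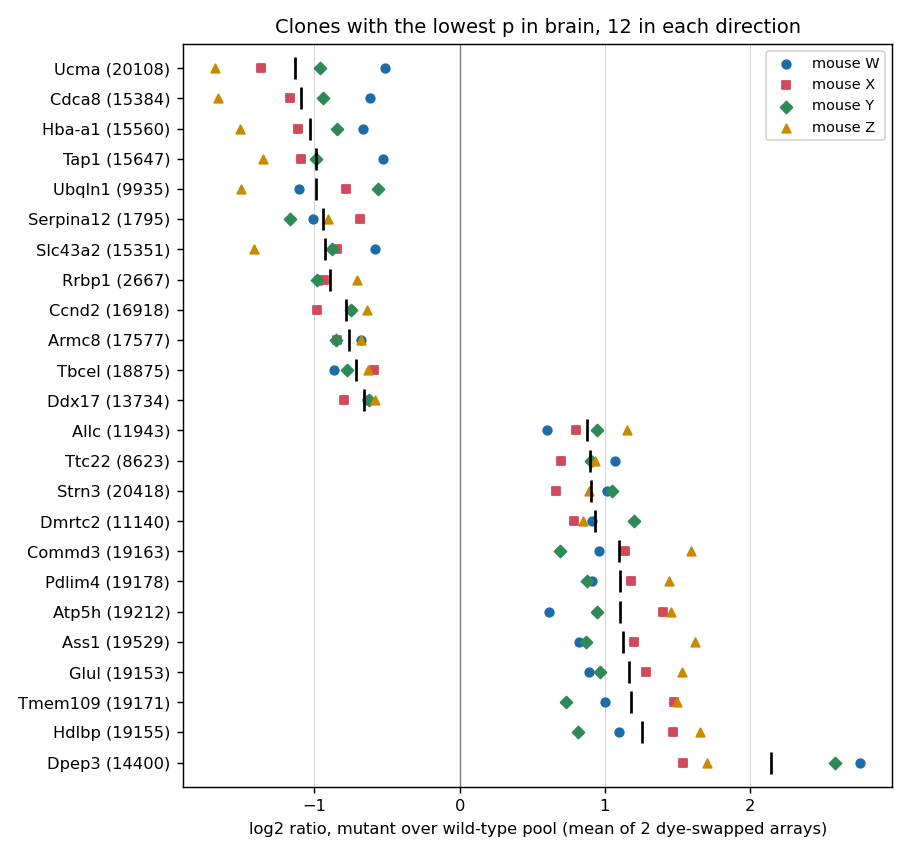
Log2 ratio (x axis) of the 24 clones with a symbol and the lowest p, 12 below and 12 above 0; each symbol is the mean of the 2 arrays of a mouse, the vertical tick the mean of 4 mice, and the clone number is in brackets. Dpep3 has the largest mean, 2.15, and no clone passed the adjusted p.

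Above 0, Dpep3, a membrane dipeptidase best known from testis, had the largest mean among these clones, 2.15 ± 0.61 (SD, n = 4 mice). The mice gave 2.76 in mouse W, 1.54 in X, 2.58 in Y and 1.71 in Z, but the dye orientations differed, 0.88 with the mutant in Cy5 and 3.42 with the mutant in Cy3. The dye orientations also lay over 1.5 times apart for Strn3 (0.43 and 1.38), Hdlbp (0.75 and 1.77), Tmem109 (0.68 and 1.68), Glul (0.81 and 1.53) and Commd3 (1.36 and 0.84). In mouse W the arrays of Strn3 had opposite signs, -1.52 and 3.56, as had those of Dmrtc2, -0.39 and 2.21. In mouse Y the arrays of Dpep3 and Strn3 also had opposite signs. There Dpep3 lay at -0.43 with the mutant in Cy5, so its value for mouse Y came from the Cy3 array alone. Strn3 lay at -0.49 in mouse Y with the mutant in Cy3. Ttc22 lay just below 0 in mouse X with the mutant in Cy3 and above 0 with the mutant in Cy5. Dmrtc2, a DM-domain protein of the germ line, had 0.94 ± 0.18 (SD, n = 4 mice), Ttc22 0.90 ± 0.15 (SD, n = 4 mice), and Strn3, a striatin scaffold of protein phosphatase 2A, 0.91 ± 0.18 (SD, n = 4 mice). Glul, the glutamine synthetase of astrocytes, Hdlbp, an RNA- and lipoprotein-binding protein, Pdlim4, an actin-associated LIM protein, Tmem109, Commd3, Atp5h, a subunit of ATP synthase, and Ass1, argininosuccinate synthase, made up a set with means between 1.10 and 1.26. In every clone of this set mouse Z was the highest, mouse X came next, and mice W and Y were the lower pair. The margin of Z over X was small for Tmem109, 1.496 against 1.479, and for Atp5h, 1.46 against 1.40.

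The ratios moved with how widely a clone varied. When the tested clones were ordered by their SD over the 8 arrays and split into 10 sets of equal size, the set with the smallest SD had a median ratio of -0.16, with 75.3% of clones below 0, and the median then ran through -0.10, -0.07, -0.03 and 0.02 to 0.10 in the ninth set. In the first set 44.2% of clones lay below 0 in all 4 mice and 9.35% above 0 in all 4. In the set with the largest SD these shares were 3% and 6.29%. In the third of clones with the smallest SD, 1427 of 4931 clones measured in all 4 mice lay below 0 in each, and 504 above. Over all clones the median was -0.02. Signal over background is not given with the values, so a clone's brightness could not be set beside its spread. Classes differed in their share of clones of small spread (the third of the tested clones with the smallest SD, which held 35.9% of the clones with a symbol), so the main classes below are also given among such clones alone; over all genes the median of such clones was -0.12, with 2109 of 3078 genes below 0.

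**Figure D2:**
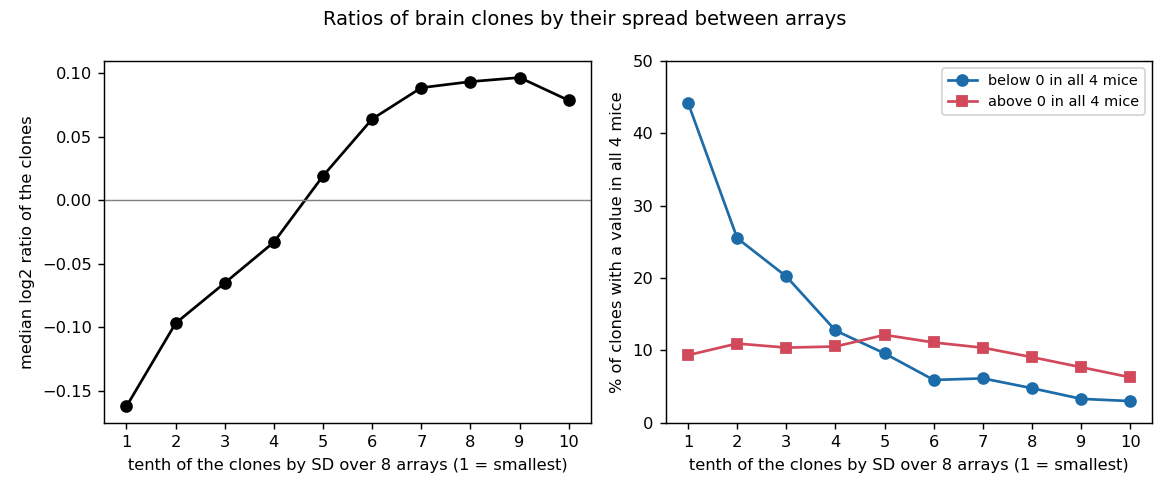
Left, median log2 ratio (y axis) of the clones in each of 10 sets by SD over the 8 brain arrays (x axis); right, share of clones with the same sign in all 4 mice (y axis, percent) for the same sets. The median runs from -0.16 in the first set to 0.10 in the ninth, and the share below 0 in all mice from 44.2% to 3%.

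Cytosolic ribosomal proteins, which build both subunits of the ribosome, had the largest share of genes below 0 among the lists with 10 or more genes tested. Of 56 genes tested 51 had a mean below 0, against 55.1% of all genes, with a median of -0.29 and medians of -0.22 in mouse W, -0.25 in X, -0.15 in Y and -0.44 in Z. In all 4 mice 31 of 55 genes lay below 0 and 2 above (background 16.1% and 8.52%). Rps24, measured by 2 clones, gave -0.62 in mouse W, -0.77 in X, -0.45 in Y and -0.37 in Z, all below 0. Rpsa, the laminin receptor and a small-subunit protein, gave -0.34 in mouse W, -0.47 in X, -0.49 in Y and -0.70 in Z, and Rpl28 -0.49 ± 0.26 (SD, n = 4 mice). Rpl30 went the other way with 0.52 in mouse W, 1.16 in X, 0.04 in Y and 0.44 in Z. At an unadjusted p under 0.05 there were 6 of the 56 genes below 0 and none above (background 4.84% and 4.75%). Of its clones 66.7% belonged to the third of smallest spread, where 45 of 47 genes lay below 0 with a median of -0.32, below that of all genes among such clones. Mitochondrial ribosomal proteins, with 54% of their clones of small spread, had a median of -0.04, equal to that of all genes, and 30 of 52 genes below 0. Translation factors had 27 of 44 genes below 0 and a median of -0.14. Eef1g, a subunit of elongation factor 1, had 0.94 ± 0.54 (SD, n = 4 mice), and Eif4a2, a helicase of initiation, -0.54 ± 0.19 (SD, n = 4 mice).

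The respiratory chain and ATP synthase, the complexes of oxidative phosphorylation, had 59 of 70 genes below 0 and a median of -0.24. The mice gave -0.16 in mouse W, -0.22 in X, -0.14 in Y and -0.37 in Z. Cox6a1, a subunit of cytochrome c oxidase, gave -1.21 in mouse W, -0.68 in X, -0.39 in Y and -1.16 in Z, and Ndufb8, a subunit of complex I, -0.20 in mouse W, -0.47 in X, -0.61 in Y and -0.69 in Z. Ndufa2 and Cox7b had lower means than Ndufb8, -0.80 and -0.61, and both were lowest in mouse Y. In all 4 mice 27 of 64 genes lay below 0 and 1 above (background 16.1% and 8.52%). In the third of smallest spread, which held 75% of the clones, 52 of 56 genes lay below 0 with a median of -0.24. In glycolysis 23 of 29 genes lay below 0 with a median of -0.16, including Aldoa, fructose-bisphosphate aldolase, with -0.51 ± 0.28 (SD, n = 4 mice), and Pdk2, a kinase that holds back pyruvate dehydrogenase, with -0.44 ± 0.20 (SD, n = 4 mice). The hexokinase Hk2 had the largest mean of that class, 2.27, with mouse X at 8.83 and the other mice between -0.88 and 1.05. Of the citric acid cycle and malate shuttle genes 20 of 27 lay below 0 (median -0.13); both aspartate aminotransferases of the shuttle lay below 0 in every mouse, with -0.56 ± 0.32 (SD, n = 4 mice) for Got1 and -0.42 ± 0.17 (SD, n = 4 mice) for Got2. Slc25a1, the mitochondrial citrate carrier, had 0.52 ± 0.27 (SD, n = 4 mice).

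**Figure D3:**
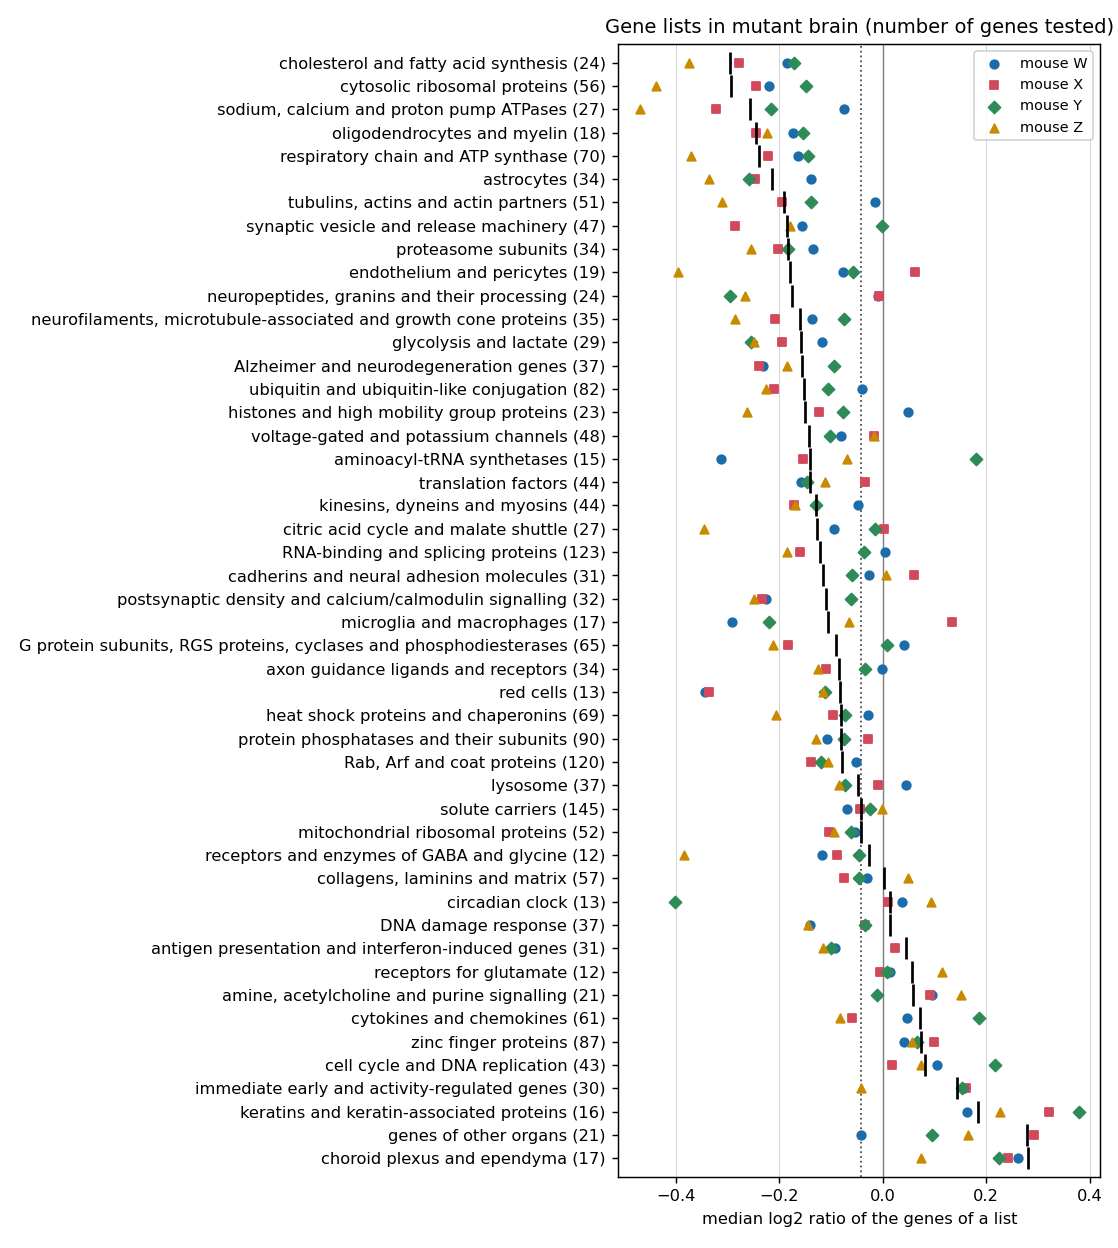
Median log2 ratio (x axis) of the genes of each list with 10 or more genes tested, with the number of genes in brackets; each symbol is the median in 1 mouse, the black tick the median of the gene means, and the dotted line the median of all genes, -0.04. Ribosomal proteins, the respiratory chain and lipid synthesis lie below the median of all genes in all 4 mice, and choroid plexus and ependyma lie above it.

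Genes of cholesterol and fatty acid synthesis, which are active in oligodendrocytes and astrocytes, had a median next to that of the ribosomal proteins, -0.29, with 19 of 24 genes below 0. The medians were -0.18 in mouse W, -0.28 in X, -0.17 in Y and -0.37 in Z. Fads1, the delta-5 fatty acid desaturase, had 2 clones and gave -0.39 in mouse W, -0.37 in X, -0.54 in Y and -0.55 in Z. Hsd17b12, an enzyme of fatty acid elongation, had -0.42 ± 0.21 (SD, n = 4 mice). Dhcr7, which makes the last step to cholesterol, had a lower mean, -0.78 ± 0.89 (SD, n = 4 mice), but mouse Y lay above 0 at 0.51. Mvd, mevalonate diphosphate decarboxylase, lay above 0 in all mice with a mean of 0.47 ± 0.73 (SD, n = 4 mice), of which mouse Z gave 1.57. Hmgcs1, the cytosolic HMG-CoA synthase and a classic target of sterol-regulated transcription, was chosen after its values were seen; its mice gave -0.47 in mouse W, -0.50 in X, -0.15 in Y and -0.19 in Z. In the third of smallest spread 14 of 16 genes lay below 0, with a median of -0.29.

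The Hmgcs1 promoter is shown because it holds both elements for which promoters of this pathway are known, a sterol regulatory element and CCAAT boxes, beside a class most of whose members lay below 0. It is the 250 bases upstream of the annotated start (RefSeq, GRCm38.p6, chr13:119690101-119690350, plus strand), with matches to TCACCCCAC and to CCAAT on either strand in capitals. Of 24 genes of the class tested in brain, 18 have a promoter in the table.
Hmgcs1: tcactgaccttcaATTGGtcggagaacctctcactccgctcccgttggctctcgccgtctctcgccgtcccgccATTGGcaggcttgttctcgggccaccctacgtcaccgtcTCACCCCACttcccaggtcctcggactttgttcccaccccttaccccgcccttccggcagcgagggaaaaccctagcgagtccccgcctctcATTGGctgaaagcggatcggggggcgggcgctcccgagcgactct
The letters TCACCCCAC occurred 1 time in it and CCAAT 3 times, each time on the minus strand. Searched on both strands of all promoters of this length, TCACCCCAC was found in 0.496% and CCAAT in 33.8%. Among the 37 genes of the class with a listed promoter, tested on the arrays or not, 1 held TCACCCCAC and 28 held CCAAT in any of their promoters. These are counts of genes, whereas the percentages are shares of promoters, so they cannot be set against each other. A match of letters is a description and says nothing about binding in these brains.

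Among cell types, astrocyte genes showed 28 of 34 genes below 0 with a median of -0.21 and mouse medians of -0.14 in mouse W, -0.25 in X, -0.26 in Y and -0.34 in Z. In all 4 mice 15 of 33 lay below 0 and 1 above (background 16.1% and 8.52%). Mt3, the metallothionein of brain, gave -0.63 in mouse W, -0.45 in X, -0.28 in Y and -0.43 in Z, and Mt1 -0.25 in mouse W, -0.34 in X, -0.49 in Y and -0.63 in Z, each below 0 in every mouse and with ranges that overlap. Sparc, a matrix protein secreted by astrocytes and vessels, had 3 clones and a mean of -0.56 ± 0.18 (SD, n = 4 mice). Glul was the exception to the class and is taken up with the clones of one gene. Among clones of small spread 20 of 22 astrocyte genes lay below 0 (median -0.25). Oligodendrocyte and myelin genes had a median of -0.25 with 12 of 18 genes below 0. Apod, a lipid carrier, gave -0.35 in mouse W, -0.27 in X, -0.60 in Y and -0.60 in Z, and Ndrg1, a protein needed for peripheral myelin, -0.18 in mouse W, -0.78 in X, -0.47 in Y and -0.50 in Z. The defining myelin genes were mixed: Mag stood at 0.07 ± 0.07 (SD, n = 4 mice), Cnp at -0.14 ± 0.18 (SD, n = 4 mice), Cldn11 at -0.21 ± 0.19 (SD, n = 4 mice) and Mbp at 0.23 ± 1.15 (SD, n = 3 mice). Pmp22 and Mobp had the widest means of the class and each rested on mouse X, which gave -8.14 and 4.49.

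Microglial genes had 11 of 17 below 0 with a median of -0.11, while the median in mouse X was 0.13. Vav1, a signalling protein of blood cells, was even at -0.54 in mouse W, -0.43 in X, -0.37 in Y and -0.45 in Z, Itgam, the CD11b integrin chain, had -0.60 ± 0.35 (SD, n = 4 mice) and Aif1, known as Iba1, 0.41 ± 0.35 (SD, n = 4 mice) on the other side of 0. Endothelial and pericyte genes had 15 of 19 below 0 (median -0.18), though mouse X had a median of 0.06. Bsg, basigin of the blood-brain barrier, gave -0.44 in mouse W, -0.32 in X, -0.23 in Y and -0.73 in Z. Kcnj8, a potassium channel subunit of pericytes, lay on the other side with 0.39 in mouse W, 1.42 in X, 1.19 in Y and 0.31 in Z, and Egfl7, a secreted endothelial protein, had 0.57 ± 1.19 (SD, n = 4 mice). The list of choroid plexus and ependyma lay on the other side. In it 11 of 17 genes lay above 0, the median was 0.28, and the mice gave 0.26 in mouse W, 0.24 in X, 0.23 in Y and 0.07 in Z. A shorter set of choroid plexus markers did not: of 4 genes tested 2 lay below 0, and their median was -0.02. Slc13a4, a sulphate transporter of the plexus, had 0.19 in mouse W, 0.38 in X, 1.30 in Y and 0.58 in Z. Tekt2 and Dynlrb2, parts of motile cilia, had 0.41 ± 0.17 (SD, n = 4 mice) and 0.39 ± 0.20 (SD, n = 4 mice), above 0 in every mouse. Of 9 genes of the class measured in all 4 mice 3 lay above 0 in each and 0 below, against 8.52% and 16.1% of all genes. Ttr, transthyretin, the thyroxine carrier secreted by the plexus, did not go with them: its 2 clones had means of -0.49 and -0.23, and clone 51 gave -0.55 in mouse W, -0.37 in X, -0.32 in Y and -0.73 in Z. These values of clone 51 rested mostly on the arrays with the mutant in Cy3, -0.905 against -0.08 in Cy5. On the Cy5 arrays mice X and Y lay just above 0. With 28.6% of its clones among those of smallest spread, the class held 6 genes there, 5 of them above 0.

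Neuronal classes lay below 0 to different degrees. Of 47 genes of synaptic vesicles and release 38 had a mean below 0, with a median of -0.18. The mouse medians were -0.16 in mouse W, -0.29 in X, 0.00 in Y and -0.18 in Z. In all mice 11 of 42 lay below 0 (26.2%) and none above (background 16.1% and 8.52%). Among clones of small spread 26 of 29 genes lay below 0 (median -0.24). Syn1, synapsin 1, which ties vesicles to the cytoskeleton, gave -0.72 in mouse W, -0.51 in X, -0.68 in Y and -0.20 in Z. Sh3gl3, Synpr and Doc2a had means of -0.53, -0.51 and -0.46, and each had at least 1 mouse at or above 0. In the postsynaptic class 22 of 32 lay below 0 and 10 of 29 in every mouse (34.5%, against 16.1% of all genes). Among clones of small spread 16 of 20 genes of that class lay below 0 (median -0.16). Nrgn, neurogranin, a calmodulin-binding protein of dendritic spines with 2 clones, had -0.24 in mouse W, -0.46 in X, -0.43 in Y and -0.53 in Z, and Ppp3cb, a catalytic subunit of calcineurin, -0.29 in mouse W, -1.18 in X, -0.67 in Y and -0.58 in Z. Growth cone, microtubule-associated and neurofilament genes had 26 of 35 below 0 (median -0.16), with Dpysl4, a collapsin response mediator, at -0.70 ± 0.37 (SD, n = 4 mice). Among clones of small spread 20 of 24 genes of this class lay below 0 (median -0.21). Pump ATPases had 20 of 27 below 0 and a median of -0.26; Atp6v0e2, a subunit of the vesicular proton pump, gave -0.37 in mouse W, -0.34 in X, -0.98 in Y and -0.55 in Z and Fxyd1, a regulator of the sodium pump, -0.73 in mouse W, -0.12 in X, -0.50 in Y and -0.43 in Z.

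Receptors and channels were mixed. Glutamate receptor genes had 4 of 12 below 0 with a median of 0.06, of which Grin2a, an NMDA receptor subunit, was even at 0.25 in mouse W, 0.25 in X, 0.25 in Y and 0.09 in Z. Genes of GABA and glycine had a median of -0.03 with 7 of 12 below 0. Gad1 and Gad2, the 2 enzymes that make GABA, had opposite signs, 0.69 in mouse W, 0.38 in X, 0.40 in Y and 0.48 in Z for Gad1 and -0.12 in mouse W, -0.42 in X, -0.16 in Y and -0.26 in Z for Gad2. Voltage-gated and potassium channels had 28 of 48 below 0, and 7 of 18 in the third of smallest spread, where their median was 0.07. Immediate early genes, which neurons switch on with activity, had 18 of 30 above 0 and a median of 0.14. In every mouse 5 of 27 lay above 0 (18.5%, against 8.52% of all genes). Fosb gave 0.87 in mouse W, 0.59 in X, 1.05 in Y and 0.66 in Z, and Nptx2, a secreted pentraxin of excitatory synapses, 0.65 in mouse W, 1.40 in X, 0.65 in Y and 0.06 in Z. Others of the class lay on the other side, with -0.80 ± 0.66 (SD, n = 4 mice) for Crem, and Trib1 had -1.01 from mouse Y alone (-3.997). In the third of smallest spread 6 of the 10 genes of this class lay below 0.

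Some class medians moved with the dye orientation. With the mutant in Cy5 and in Cy3 the ribosomal proteins had -0.22 and -0.33, the respiratory chain -0.19 and -0.22, synaptic vesicles -0.21 and -0.21, and astrocytes -0.17 and -0.14, all below 0 on both. Others lay below 0 mainly on one orientation. The postsynaptic genes had -0.26 and 0.00, growth cone and neurofilament genes -0.30 and -0.01, glycolysis -0.02 and -0.30, the citric acid cycle -0.04 and -0.16, and endothelium -0.05 and -0.24. The sign turned for glutamate receptors (-0.06 and 0.18), channels (0.10 and -0.09), red cell genes (-0.24 and 0.02) and antigen presentation (-0.10 and 0.09). Cholesterol synthesis had -0.33 and -0.18, and the proteasome -0.32 and -0.16. Choroid plexus had 0.29 and 0.13, zinc finger proteins 0.02 and 0.17, and immediate early genes 0.07 and 0.13. The myelin genes had -0.03 and -0.09, both nearer 0 than the median of the gene means.

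Prl and Gh, hormones of the anterior pituitary, differed widely between the mice. Prl, prolactin, gave -3.98 in mouse W, 1.18 in X, -3.52 in Y and -2.46 in Z, and Gh, growth hormone, -1.77 in mouse W, 0.94 in X, -3.25 in Y and -2.57 in Z. Both were far below the pool in mice W, Y and Z and above it in mouse X, so neither gene had one sign, and the means of -2.20 ± 2.34 (SD, n = 4 mice) and -1.66 ± 1.84 (SD, n = 4 mice) had adjusted p-values of 0.518 and 0.519. The sign held on both arrays of each mouse: for Prl the pairs were -4.70 and -3.25 in W, 0.05 and 2.32 in X, -3.94 and -3.10 in Y, and -1.65 and -3.28 in Z. Pomc, made in corticotrophs and in hypothalamic neurons, gave -0.03 in mouse W, 0.51 in X, -1.10 in Y and -0.01 in Z, again highest in X but near 0 in W and Z. No other of the 5 pituitary hormone genes on the array was tested.

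The promoter of Prl is printed for its matches to TATNCAT, the core of the sites of Pit-1, the factor that lactotrophs and somatotrophs share (RefSeq, GRCm38.p6, chr13:27057320-27057569, plus strand, 250 bases upstream of the start, matches in capitals).
Prl: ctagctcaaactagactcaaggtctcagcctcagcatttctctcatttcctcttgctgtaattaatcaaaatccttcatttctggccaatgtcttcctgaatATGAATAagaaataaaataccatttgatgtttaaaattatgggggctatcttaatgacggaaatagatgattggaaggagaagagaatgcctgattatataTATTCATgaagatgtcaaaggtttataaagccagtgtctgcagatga
There was 1 match on each strand. On either strand the letters occurred in 7.92% of all promoters of this length. Of 6 pituitary hormone genes 1 held them in any of its promoters, Prl. The percentage is a share of promoters and the count one of genes, so they cannot be set against each other. Of the 3 hormone genes tested 2 have a promoter in the table.

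**Figure D4:**
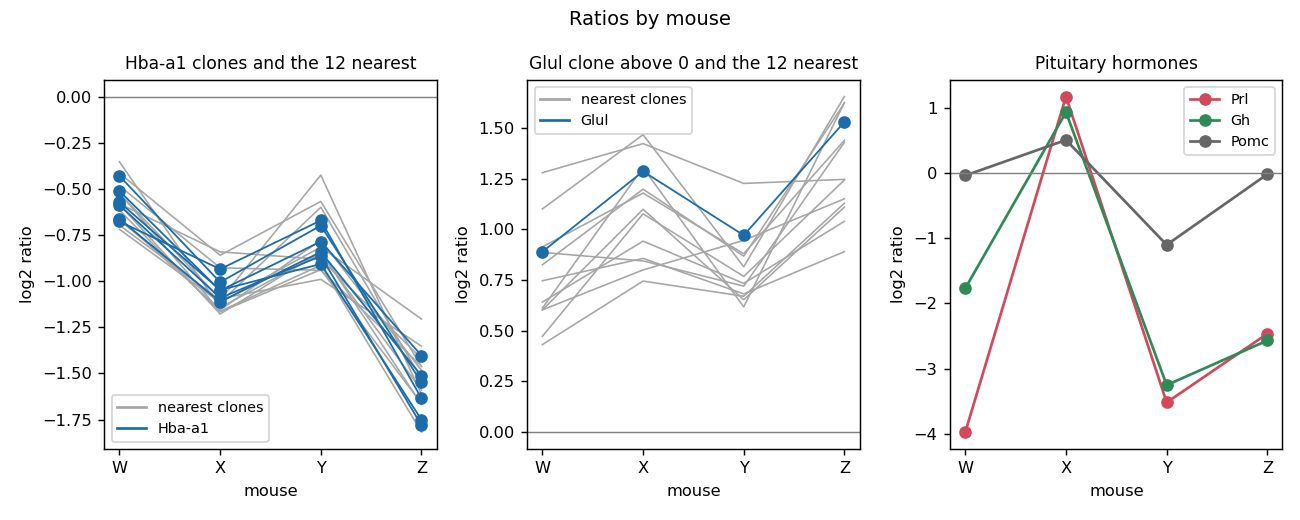
Log2 ratio (y axis) in each mouse (x axis) of the 6 Hba-a1 clones with the 12 clones nearest to their mean, of Glul clone 19153 with its 12 nearest, and of the Prl, Gh and Pomc clones; lines join the values of 1 clone. The Hba-a1 clones are lowest in mouse Z, and Prl and Gh lie above 0 in mouse X only.

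The haemoglobin clones lay close together in every mouse. Hba-a1, an alpha globin of red cells, had 6 tested clones, with medians of -0.58 in mouse W, -1.05 in X, -0.81 in Y and -1.59 in Z. Within a mouse the 6 clones were close, from -0.68 to -0.43 in W and from -1.78 to -1.40 in Z, so the mice differed more than the clones. Other red cell genes did not go along to the same extent: Fech, the last enzyme of haem synthesis, had -0.34 ± 0.26 (SD, n = 4 mice), Klf1, an erythroid transcription factor, -0.21 ± 0.60 (SD, n = 4 mice), and of 13 genes of the class 9 lay below 0 with a median of -0.08. Several clones annotated to other genes had nearly the same values. By the root mean square difference over the 8 arrays, the nearest of 12083 clones was Cdca8, a mitotic chromosome passenger protein, at 0.172, with -0.62 in mouse W, -1.17 in X, -0.94 in Y and -1.66 in Z. Slc43a2, H3f3a, Krt16, Fbxo32, Tap1 and Rhob were among the 12 nearest (0.172 to 0.308), with means from -1.10 to -0.93, and 5 of the 12 had no symbol. The order of mice Z, X, Y, W from the lowest was found in 5.55% of all clones and in 10.5% of those below 0 in all mice. Clone numbers of the 12 ran from 4152 to 20545, but 7 of the clones and 5 of the Hba-a1 clones lie between 15351 and 15662. The tested clones within 50 numbers of Cdca8 had a median of -0.04, near that of all clones. Nup155, a protein of the nuclear pore, ordered the mice in the same way, with -0.26 in mouse W, -1.07 in X, -0.65 in Y and -1.27 in Z.

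A looser mirror of this was seen above 0. Here and for Hba-a1 the clones were picked as the nearest, so like values follow from the choice. The 12 clones nearest to Glul clone 19153 (0.285 to 0.480, against 0.172 to 0.308 for Hba-a1) had means from 0.74 to 1.29. They included Pdlim4, Hdlbp, Ass1 clone 19529, Trap1, a mitochondrial chaperone, Pafah1b2, Zfp653 and Allc. Over the 8 arrays their correlation with the Glul clone ran from 0.34 to 0.96, with 0.58 for Ass1 clone 19529. Glul clone 19153 itself gave 0.89 in mouse W, 1.29 in X, 0.97 in Y and 1.53 in Z. Pdlim4, Hdlbp, Tmem109, Commd3 and Atp5h are numbered 19178, 19155, 19171, 19163 and 19212, close to the Glul clone. The 76 tested clones within 50 numbers of it, itself among them, had a median of -0.03, with 47.4% above 0. Of these, 15 of 63 lay above 0 in all 4 mice (background 10.1%). That count takes in the Glul, Pdlim4, Hdlbp, Tmem109 and Commd3 clones, which were named for their values above 0. It therefore cannot be read against the background.

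Clones of one gene agreed little. Of 1862 symbols with at least 2 tested clones 890 (47.8%) had all clones on one side of 0, 580 below and 310 above. Over 3070 pairs of clones of the same symbol 53.9% had the same sign, and across pairs, which are not independent replicates and share the 8 arrays, Pearson's r was 0.03 and Spearman's rho 0.07. The agreement followed the spread. With both clones in the third of smallest SD, where 65.6% of clones lay below 0, 66.5% of 516 pairs had the same sign and r was 0.36 (rho 0.28). All 6 Hba-a1 clones, with means from -1.08 to -0.92, are among these, and r without them was not computed. Among clones of middle SD r was 0.06 and in the third of largest SD 0.05. Of the 377 symbols with 2 or more clones of small spread 236 (62.6%) had one sign throughout, 215 of them below 0.

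**Figure D5:**
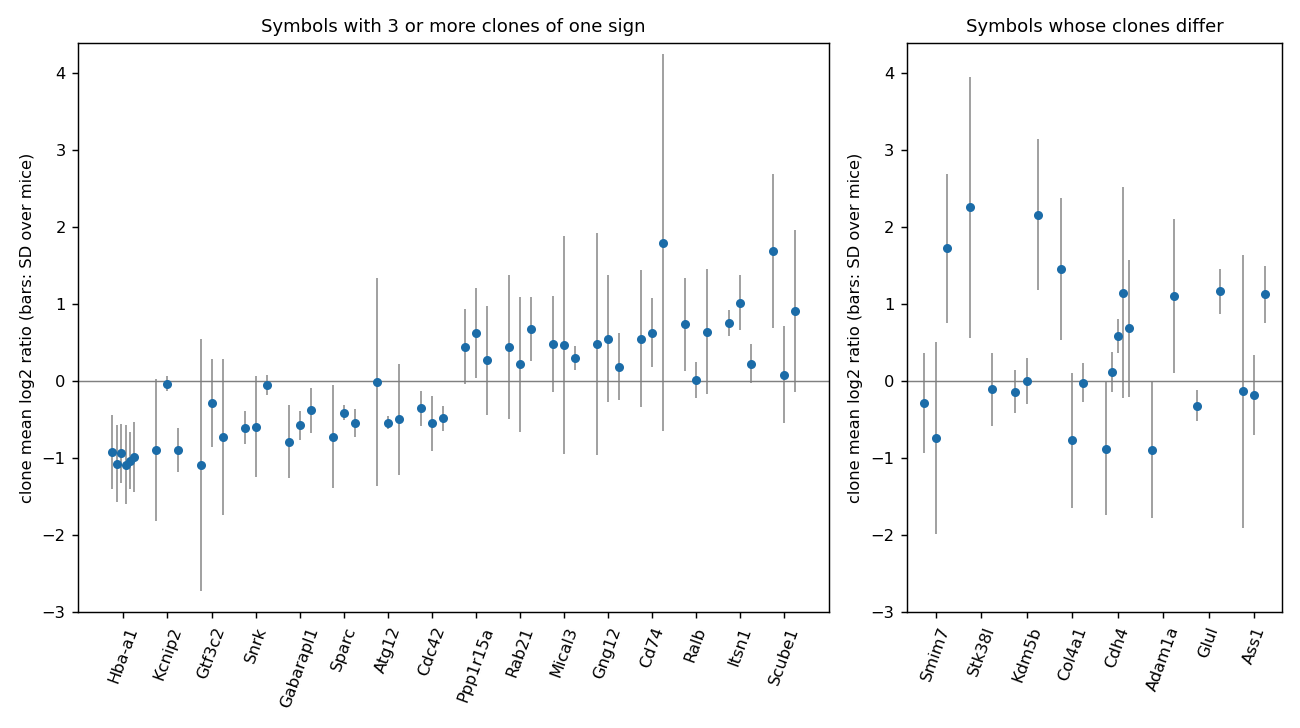
Mean log2 ratio (y axis) of each clone of the symbols with 3 or more clones of one sign and the most extreme medians, 8 on either side, and of symbols whose clones lie far apart; points are clone means and bars the SD over mice. The 6 Hba-a1 clones lie between -1.08 and -0.92, whereas the 2 Glul clones are at -0.31 and 1.17.

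Of 428 symbols with 3 or more tested clones 120 had all clones of one sign, 82 below 0 and 38 above. Of the 8 with the lowest medians, Hba-a1 had the closest clones, followed by Cdc42, a GTPase of actin and spine shape, Sparc and Gabarapl1, an autophagy protein of the Atg8 family. The Cdc42 clones had means of -0.35, -0.54 and -0.48, and each was below 0 in all 4 mice. Their dye orientations differed. With the mutant in Cy5 and in Cy3, clone 2504 had -0.13 and -0.58, clone 4918 -0.82 and -0.27, and clone 5199 -0.03 and -0.93. For Sparc the clones gave -0.72, -0.41 and -0.54, again below 0 in every mouse. By dye orientation, Cy5 then Cy3, Sparc clone 5169 had -0.45 and -0.99, clone 8503 -0.01 and -0.80, and clone 11119 -0.75 and -0.34. Gabarapl1 clone 11082 gave -0.63 in mouse W, -0.56 in X, -0.78 in Y and -0.33 in Z, clone 11079 -1.44 in mouse W, -0.81 in X, -0.39 in Y and -0.50 in Z and clone 17247 -0.13 in mouse W, -0.29 in X, -0.28 in Y and -0.81 in Z. All of these lay below 0, which the choice of symbols with clones of one sign favours. The clones of a symbol also share the same arrays and mice, so they are not independent. Sqstm1, the autophagy receptor p62, was chosen after its values were seen: its 3 clones had means of -0.40, -0.41 and -0.34, though clone 340 had mice on both sides. A wider list of autophagy genes, also drawn up after values were seen, had 17 of 27 genes below 0, against 55.1% of all genes, and a median of -0.13, which was 0.00 with the mutant in Cy5 and -0.16 with the mutant in Cy3. In the sets of Kcnip2, Gtf3c2, Snrk and Atg12 one clone lay near 0 or the mice split, and Atg12 ranged from -0.54 to -0.01.

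Of the 8 with the highest medians, Mical3, an actin-oxidising enzyme, had the closest clone means, at 0.48, 0.47 and 0.31. Its mice split, however: clone 6915 gave 1.54 in mouse W, -0.89 in X, -0.61 in Y and 1.84 in Z. Clone 3595 was measured in 3 mice, with W at -0.05, and only clone 14929 lay above 0 in all 4. Scube1, a secreted protein of the cell surface, had clone means of 0.09, 0.91 and 1.69, and Itsn1, an endocytic scaffold, 0.23, 0.76 and 1.02. Each Scube1 clone was measured in 3 mice, and clones 17675 and 17813 had mice on both sides of 0. Itsn1 clone 11325 had mouse Y at -0.10. Cd74, the invariant chain of MHC class II, had 0.56, 0.63 and 1.80; clone 6906 was above 0 in each mouse (0.77 in mouse W, 0.23 in X, 0.33 in Y and 1.21 in Z), whereas mouse X was negative on clone 6360 and mouse Z on clone 16979. Oas1a, an interferon-induced enzyme, had 1.19 ± 0.81 (SD, n = 4 mice), and the class of antigen presentation and interferon-induced genes as a whole had a median of 0.04, with 18 of 31 genes above 0, although the medians within mice W, Y and Z were below 0. For Ppp1r15a, a stress-induced phosphatase subunit, the clones were at 0.45, 0.63 and 0.27, and mouse Y lay at -0.75 on clone 13588.

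Some genes had clones on opposite sides of 0. Glul clone 2548 gave -0.12 in mouse W, -0.40 in X, -0.17 in Y and -0.56 in Z, all below 0, and clone 19153 was above 0 in all 4 mice, so the 2 clones do not overlap in any mouse. Ass1 clone 19529 had 0.83 in mouse W, 1.20 in X, 0.87 in Y and 1.62 in Z, while clones 18983 and 7392 had means of -0.18 and -0.13 with mice on both sides of 0. With values beyond 10 left out, the widest ranges among clones of one gene were 2.47 for Smim7, 2.36 for Stk38l, 2.30 for Kdm5b, 2.22 for Col4a1, 2.03 for Cdh4 and 2.00 for Adam1a. Kdm5b, a histone demethylase, had clone 15834 at 1.61 in mouse X, 3.30 in Y and 1.58 in Z and the other clones at -0.14 and 0.00. Syt1, the calcium sensor of vesicle fusion, had 0.81, -0.38 and -0.31, of which clone 16814 was below 0 in every mouse, clone 15791 above 0 in the 3 mice measured, and clone 17277 split. For Atxn10 the clones were at 0.46 and -0.61.

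Genes with a link to neurodegeneration had 27 of 37 below 0 (median -0.16), 14 of 36 in every mouse (38.9%, against 16.1% of all genes). The study had named genes with such a link from these same arrays, Arpp19 and Xiap among them. The list was drawn up with earlier results known, so its share cannot be read against that of all genes. Of its clones 55% were of small spread, against 35.9% of all clones with a symbol. Arpp19, a cAMP-regulated phosphoprotein, gave -0.23 in mouse W, -0.49 in X, -0.44 in Y and -0.53 in Z, and Xiap, an inhibitor of caspases, -0.29 in mouse W, -0.54 in X, -0.26 in Y and -0.73 in Z. Cdk5r1, the p35 activator of Cdk5, had -0.66 ± 0.18 (SD, n = 4 mice) and Aplp1, an amyloid precursor-like protein, 0.82 ± 0.46 (SD, n = 4 mice). Proteasome subunits had 28 of 34 below 0 (median -0.18), with Psma1 at -0.50 in mouse W, -0.49 in X, -0.31 in Y and -0.56 in Z, and ubiquitin conjugation 62 of 82 (median -0.15). Zinc finger proteins, with 31.6% of their clones in the third of smallest spread, had 49 of 87 genes above 0 and a median of 0.07. In all mice 12 of 78 lay above 0 (15.4%, against 8.52% of all genes). In the network around Eya, 7 genes were tested and none had one sign in all mice: Sox2 had -0.20 ± 0.44 (SD, n = 4 mice), Pax6 -0.04 ± 0.93 (SD, n = 4 mice) and Pax2 0.42 ± 1.07 (SD, n = 4 mice), and Eya2 had 1.20 ± 1.70 (SD, n = 3 mice). Of the 50 protein-coding genes on each side of Eya3 on chromosome 4, 49 in all were tested, 25 lay below 0 (51%, against 55.1% of all genes), and the median was -0.02.

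The displacement was set beside that of the other organs, each measured against its own pool. No clone passed limma for the difference between organs: 0 of 13948 clones for brain minus heart (0%, lowest adjusted p 0.394) and 0 of 12762 for brain minus muscle (0%, lowest 0.701), while 11.3% and 6.53% had an unadjusted p under 0.05. Ribosomal proteins had a median of 0.15 in heart with 11 of 56 genes below 0, and 0.00 in muscle with 25 of 56. The respiratory chain had 0.13 in heart with 12 of 73 genes below 0. In both classes mouse Y was the exception in heart, with medians of -0.07 and -0.16. Astrocyte genes had 0.00 in heart and -0.02 in muscle. Other cell-type lists lay on the same side as in brain. Endothelial and pericyte genes had -0.15 in heart, with 15 of 21 genes below 0, but 0.01 in muscle. The choroid plexus and ependyma list had 0.10 in heart and 0.12 in muscle, with 7 of 16 and 6 of 18 genes below 0. Of single clones, Glul clone 19153 had -0.02 in heart and -0.05 in muscle (adjusted p for the difference from brain by limma 0.394 and 0.701). The Hba-a1 clones had negative means in heart as well, from -0.79 to -0.47, and lay between -0.05 and 0.15 in muscle.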

How the data were processed

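Total RNA of each organ was labelled with Cy3 or Cy5 and hybridised against a wild-type pool carrying the other dye on glass cDNA arrays, which were read with GenePix Pro and normalized by the authors with TIGR MIDAS. The deposited values are log ratios, treated as log2, with 1 value per clone and array; their log base, direction and normalization method are not stated, and intensities were not used here, so signal over background is unknown and the number of arrays limits the precision. Clones were named through the platform annotation. Mouse means of both dye orientations were tested against 0 with limma 3.58.1 (R 4.3.3; lmFit, eBayes, Benjamini-Hochberg, called at an adjusted p under 0.10), on clones and on the mean of the clones of a symbol. Organ differences were fitted without a block; the same mice gave all organs, but their deviations correlated by at most 0.06 between brain and muscle and by at most 0.01 between brain and heart. Nothing states that the arrays of a mouse came from separate extracts, and they were counted as 1 sample. Named were the 12 clones of lowest p in each direction, the genes the study names for brain, the 8 symbols per direction with 3 or more clones of one sign and the most extreme medians, the 6 symbols with the widest clone range, and the 4 members of each list with the largest means in size among genes measured in all 4 mice. The genes Prl, Gh and Pomc with their promoters, Hmgcs1, Sqstm1, Mag, Cnp, Cldn11, Mbp, Pax6, Eya2 and the clones of like profile were taken up after seeing their values. The members and the 50 lists were chosen with earlier results of these data known, and 2 further lists (pituitary hormones, autophagy) and the third of clones of smallest spread were added later. The statistics were tested on simulated data. Alternatives changed centring, extreme and missing values, dye orientation, mice, variance model, threshold, test and block.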

Additional observations from a re-analysis of the deposited data

Results flagged for a closer look

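In 12 of 141 clones and list medians examined in brain, 1 mouse stood apart from the other 3 by more of the range than Dixon's 95% critical value allows; chance gives about 1 in 20. Single clones in which this held were Cdh4 clone 18165 (2.01 in mouse W), Ralb clone 2002 (1.64 in W), Syt1 clone 17277 (-2.07 in W), Gng12 clone 1203 (2.63 in Y), Ppp1r15a clone 10093 (1.502 in Y) and Mobp clone 18134 (-1.18 in Z). The other mice of Gng12 clone 1203 lay at -0.47, -0.01 and -0.22, and those of Syt1 clone 17277 between 0.20 and 0.44. Among list medians, circadian clock genes stood at -0.40 in mouse Y against 0.04, 0.01 and 0.09 in W, X and Z, and the Eya and Pax network at -0.39 in mouse Z. Glutamate receptors had 0.11 in mouse Z, immediate early genes -0.042 in Z, the postsynaptic list -0.062 in Y, and antigen presentation and interferon-induced genes 0.023 in X.

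For 4 lists every mouse had a median on one side of 0 in brain and on the other side in another organ. Brain minus heart was -0.32 for pump ATPases, -0.29 for tubulins, actins and actin partners and -0.22 for translation factors, and brain minus muscle was -0.28 for synaptic vesicle and release genes. These differences were not tested.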

How the results depend on the processing

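The count of 0 clones called in brain held under the other centrings, treatments of extreme and missing values, single dye orientations and robust variances. It also held at an adjusted p under 0.05, with each mouse left out, on the mean of the clones of a symbol and with SAM on mouse means. Taking the 8 single arrays as samples gave 1 clone and SAM on single arrays 29, and both count a mouse more than once. With the mouse as a random block, the single arrays gave 9 clones. That fit allows for the likeness of the arrays of a mouse by a single correlation shared by all clones. For brain minus heart and brain minus muscle the fit with the replicate block also called 0 clones, as did the other alternatives run. The 1892 clones below 0 in all mice became 2437 to 2978 when a mouse was left out, a change that fewer mice bring by construction, and the 1217 above 0 became 1781 to 2257; arrays with the mutant in Cy5 alone gave 1845 above 0, and the third of clones with the smallest SD held 504. The 47.8% of symbols with clones of one sign became 51.1% with values in all 4 mice, 45.8% with at least 1 array per mouse, 45.9% on arrays with the mutant in Cy3, 62.6% in the third of smallest SD and 46.4% to 53.3% with a mouse left out. Of 461 alternative values of 43 named clones 10 changed sign. Ass1 clone 7392 (-0.13) was 0.045 with the mutant in Cy5 and -0.78 to 0.60 without 1 mouse, Ass1 clone 18983 -0.34 to 0.030 without 1 mouse, and Syt1 clone 17277 0.49 with the mutant in Cy3 and -0.55 to 0.28 without 1 mouse. Atxn10 clone 6945 (0.46) was -0.50 with at least 1 array per mouse and -1.16 with the mutant in Cy3, Cd74 clone 6360 -0.285 with the mutant in Cy5, and Xiap clone 20476 0.041 with the mutant in Cy3. The cause was not tested. Of 25 lists with a median under -0.1, 21 stayed below 0 on Cy5 arrays, 24 on Cy3 arrays and 24 in the third of smallest SD, and all 25 under the other settings; of 4 lists over 0.1, 3 stayed above 0 on either orientation and without mouse X, and 1 in the third of smallest SD. With a pool as the only control and no intensities, the spread between wild-type brains and the signal behind a ratio are not known.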
